A study of Homo sapiens with 6 samples.

Results

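The genes described are 10 feedback regulators of WNT signalling in HCT116 cells, an established human colon cancer line: AXIN2, RNF43, ZNRF3, NKD1, NKD2, NOTUM, DKK1, APCDD1, LGR5 and TCF7. They were taken by symbol from a table of reads per gene that lists 23368 symbols, and all 10 were found there. The study depleted ADNP, a zinc finger and homeodomain protein of chromatin, by an siRNA named siADNP and set these cells against cells given the siRNA named siControl, each group with 3 libraries of RNA sequencing. Neither group carried any other treatment that the labels name, the cells of both groups are 1 cancer line, and the labels do not say whether the 3 samples of a group came from separate transfections, so the replicate spread behind each p-value may be in part technical. Libraries were made from 150 ng of total RNA.

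In WNT signalling a ligand binds a Frizzled receptor and an LRP5 or LRP6 co-receptor, the complex that destroys beta-catenin is disabled, and beta-catenin enters the nucleus to activate genes together with TCF and LEF factors. Several of the genes it switches on act back on the pathway: AXIN2 is a scaffold of the destruction complex, RNF43 and ZNRF3 are ubiquitin ligases that remove Frizzled from the cell surface, NKD1 and NKD2 bind Dishevelled, NOTUM strips the lipid from WNT ligands, and DKK1 and APCDD1 act on the receptors outside the cell. LGR5 is a receptor for R-spondins, which neutralise RNF43 and ZNRF3, and TCF7 encodes the factor TCF1. HCT116 is known to carry an activating CTNNB1 mutation, and the mutant beta-catenin is stabilised without a WNT signal.

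Of the 10 genes, 8 had enough reads to be tested. AXIN2, TCF7 and RNF43 rose with siADNP, by 1.46-fold, 1.35-fold and 1.22-fold, and DKK1 fell to 83.7% of the control level. In bulk RNA, a change in how many cells express a gene and a change in RNA per cell cannot be told apart. ZNRF3, NOTUM, NKD1 and NKD2 did not pass the test, and APCDD1 and LGR5 were at or next to 0 reads. Calls were made where the adjusted p lay under 0.05 in edgeR's quasi-likelihood test over all genes. By that rule 3 of the 8 tested genes were called higher, where 14.6% of the 12489 tested genes were, and 1 of 8 was called lower, where 13.7% were. Called in either direction were 4 of 8, against 28.3% of all tested genes. The groups did not overlap in 5 of the 8, 4 higher and 1 lower, where 40.8% of all tested genes did not overlap, 20.1% higher and 20.7% lower. With 8 genes, chosen with earlier results of these data known, these shares are a description only. The median log2 fold change of the 8 was 0.25, beside -0.00128 over all tested genes, and 5 of the 8 values were positive.

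Promoter windows from RefSeq (build GRCh38.p14) were used for RNF43, NKD2, DKK1, APCDD1 and TCF7, with a pair of start sites each for RNF43 and TCF7, and those of AXIN2, ZNRF3, NKD1, NOTUM and LGR5 were not used here. Each window runs from 250 bases before the start to 50 after it. Those of DKK1, the gene that fell, and of TCF7 and RNF43, which rose, are shown because these are the called genes with a window. For RNF43 only the window at the first start is shown. Capitals mark matches to a TCF and LEF core motif, searched on both strands. Its forms were CTTTGAA and also CTTTGAT, then with a T after the G, CTTTGTA and likewise CTTTGTT.
DKK1, chr10:52314031-52314330, plus strand: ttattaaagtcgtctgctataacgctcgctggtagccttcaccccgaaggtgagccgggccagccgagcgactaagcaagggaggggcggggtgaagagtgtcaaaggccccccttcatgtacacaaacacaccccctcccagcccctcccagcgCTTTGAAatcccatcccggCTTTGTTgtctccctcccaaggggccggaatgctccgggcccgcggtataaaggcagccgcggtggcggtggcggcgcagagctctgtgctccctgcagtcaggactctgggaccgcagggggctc
TCF7, first start, chr5:134115363-134115662, plus strand: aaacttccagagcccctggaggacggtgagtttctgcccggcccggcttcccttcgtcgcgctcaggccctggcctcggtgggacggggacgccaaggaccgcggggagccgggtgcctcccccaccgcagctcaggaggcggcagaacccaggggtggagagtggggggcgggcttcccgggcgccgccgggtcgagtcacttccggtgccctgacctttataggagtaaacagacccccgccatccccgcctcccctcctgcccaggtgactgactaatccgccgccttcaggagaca
TCF7, second start, chr5:134123368-134123667, plus strand: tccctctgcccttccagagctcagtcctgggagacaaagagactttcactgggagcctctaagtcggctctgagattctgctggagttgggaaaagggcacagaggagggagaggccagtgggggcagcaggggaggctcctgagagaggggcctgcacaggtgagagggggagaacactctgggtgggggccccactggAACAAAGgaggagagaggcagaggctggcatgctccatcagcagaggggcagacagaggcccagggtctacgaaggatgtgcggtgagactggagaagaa
RNF43, first start, chr17:58417485-58417784, minus strand: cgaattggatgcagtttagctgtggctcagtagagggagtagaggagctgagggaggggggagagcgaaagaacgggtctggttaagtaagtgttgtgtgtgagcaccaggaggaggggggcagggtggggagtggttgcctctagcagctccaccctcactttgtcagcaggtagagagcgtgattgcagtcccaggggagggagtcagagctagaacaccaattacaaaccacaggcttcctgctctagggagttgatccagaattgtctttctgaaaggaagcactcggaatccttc
The DKK1 window held a pair of matches, CTTTGAA at -95 and CTTTGTT at -76 from the start, both on the gene's own strand. The window at the second TCF7 start held CTTTGTT on the opposite strand, at -50, which reads as AACAAAG in the line above. The first TCF7 window and the RNF43 window shown held none, nor did the window at the second RNF43 start. A match was present in 2 of the 7 windows of these genes and in 13.8% of all 35116 windows of 300 bases. The first TCF7 window had a GC content of 69.7% and the DKK1 window 63.7%. Counts per gene add up the transcripts from both starts of TCF7 or RNF43, so which start contributed was not measured.

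ADNP, the targeted gene, stood at 46.7, 55.3 and 59.8 CPM (reads scaled to a common library size with edgeR's TMM factors) in the siADNP libraries and at 171, 155 and 167 CPM in the siControl libraries. Reads assigned to genes ranged from 7396771 to 8726017 per siADNP library and from 8282290 to 10265175 per siControl library. Markers of an epithelial line were present: EPCAM averaged 328 CPM with siADNP and 335 CPM with siControl, and KRT8 1302 and 1297 CPM. The markers VIL1 and KRT20 of mature colon epithelium had, in order, 0 reads anywhere, and 26 reads with siADNP and 20 with siControl. Of 8 fibroblast and smooth muscle markers 3 were testable, DCN and LUM had no read, and the summed level was 14.5 to 19.5 CPM with siADNP and 14.9 to 18.8 CPM with siControl. Within that sum DES rose, from 1.38 to 4.94 CPM, and ACTA2 fell, from 7.96 to 3.81 CPM. Of 5 blood markers only CD68 was testable, HBB had no read, and the sum was 9.29 to 10.3 CPM with siADNP and 6.87 to 7.62 CPM with siControl. None of 4 endothelial markers was testable. Reads on lines that name no gene took 72.8% to 73.6% of each siADNP library and 71.7% to 72.3% of each siControl library, without overlap. The part of these differences in any result was not tested.

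AXIN2, the inducible scaffold that rebuilds the destruction complex, was measured at 31.6, 30.9 and 30.5 CPM in the siADNP libraries and at 21.5, 19.1 and 23.5 CPM in the siControl libraries. Every siADNP library lay above every siControl library, and the siADNP values were the more tightly grouped, at 31.0 ± 0.550 CPM against 21.4 ± 2.22 CPM (SD, n = 3 each). The log2 fold change was 0.54 ± 0.09 (SE), with a 95% interval of 0.35 to 0.73 and an adjusted p of 2.69e-05 in edgeR. Its constitutive relative AXIN1 was at 26.8, 27.7 and 25.6 CPM with siADNP and 24.4, 24.0 and 24.8 CPM with siControl. The AXIN1 groups did not overlap, but the difference did not pass (log2 fold change 0.13 ± 0.09, edgeR adjusted p = 0.283). With a correction for GC content its log2 fold change was 0.01, beside 0.51 for AXIN2. In GENCODE 29, exons of AC004805.1 share 1316 bases with AXIN2 on the same strand. AC004805.1 is not among the symbols counted under that name, and reads on the shared bases cannot be told apart.

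TCF7, which encodes TCF1, stood at 30.6, 28.8 and 30.4 CPM with siADNP and at 20.6, 23.1 and 22.4 CPM with siControl. The groups were separated by more than their own ranges, and averaged 29.9 ± 0.986 CPM with siADNP and 22.1 ± 1.28 CPM with siControl (SD, n = 3 each). The log2 fold change was 0.44 ± 0.09 (SE; 95% interval 0.25 to 0.62), with an edgeR adjusted p of 0.000384. TCF7L2, the most abundant of the TCF and LEF genes here by CPM per kilobase of exon, was at 23.0 with siADNP and 21.9 with siControl on that scale, and its log2 fold change of 0.07 ± 0.05 did not pass (edgeR adjusted p = 0.345, 95% interval -0.04 to 0.18). TCF7L1 had a log2 fold change of 0.31 ± 0.17 and did not pass (edgeR adjusted p = 0.174); it was 0.18 without siControl replicate 2 and 0.49 without siControl replicate 3 (adjusted p = 0.533 and 0.0555). LEF1 had 1 read in the siControl libraries and 0 in the siADNP libraries. The counts do not separate the TCF7 isoform that binds beta-catenin from the shorter one that lacks that domain. In GENCODE 29, exons of SKP1 on the opposite strand share 210 bases with TCF7. SKP1 was called lower, with a log2 fold change of -0.14 (edgeR adjusted p = 0.0442).

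Of the pair of membrane ubiquitin ligases, RNF43 was at 93.9, 90.3 and 87.4 CPM with siADNP and at 77.7, 71.5 and 73.7 CPM with siControl. No library of one group reached the other, and the means were 90.5 ± 3.23 and 74.3 ± 3.14 CPM (SD, n = 3 each). The log2 fold change was 0.29 ± 0.06 (SE; 95% interval 0.16 to 0.41; edgeR adjusted p = 0.000384). In GENCODE 29 the exons of RNF43 share 143 bases with SUPT4H1 and 4326 with AC004687.2 on the same strand, and 1521 with TSPOAP1-AS1 on the other. AC004687.2 and TSPOAP1-AS1 are not among the symbols counted under those names. SUPT4H1 had a log2 fold change of 0.07 that did not pass (edgeR adjusted p = 0.426). ZNRF3 was at 25.8, 25.4 and 26.4 CPM with siADNP and at 21.7, 20.8 and 24.2 CPM with siControl. Its groups did not overlap either, but siControl replicate 3 came close to the siADNP range. The log2 fold change of 0.22 ± 0.10 (SE; 95% interval 0.03 to 0.42) missed the threshold, with an edgeR adjusted p of 0.0789 and, over the alternatives, 0.0508 to 0.266.

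**Figure D1:**
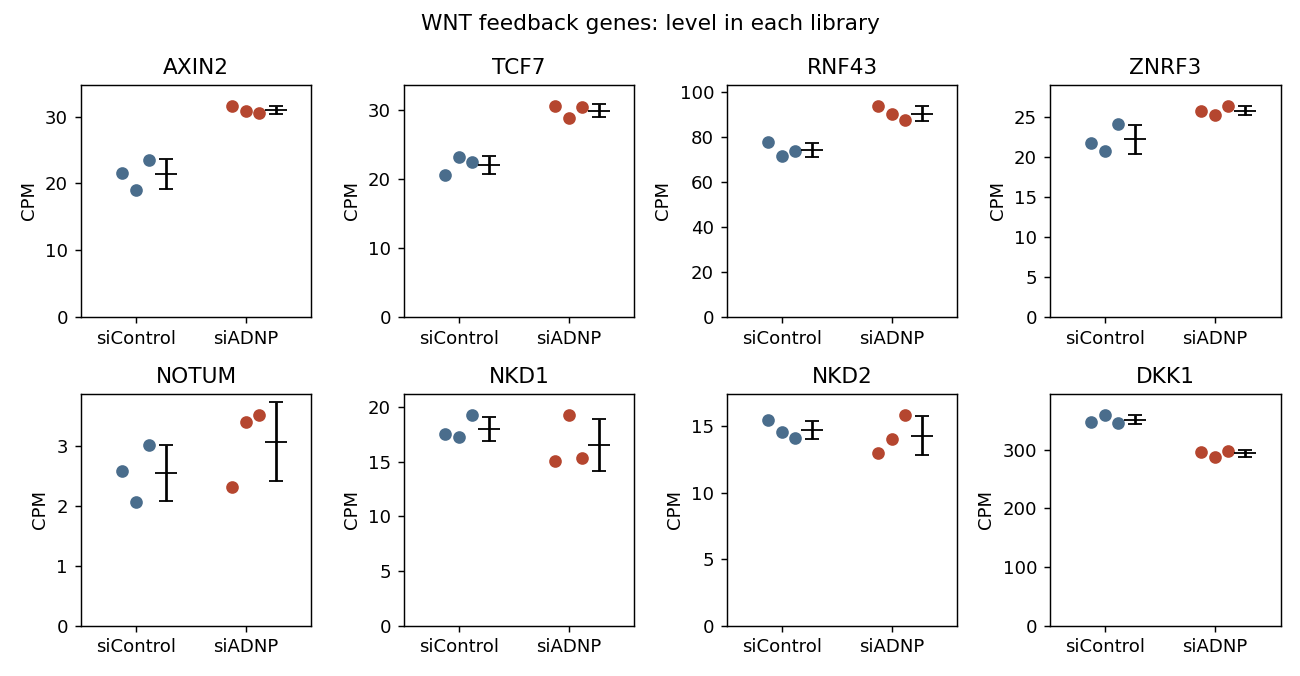
Level of the 8 tested genes in each library, in CPM (linear axes from 0). Points are libraries, blue for siControl and red for siADNP, and the black mark and bar are the mean and SD of 3 libraries. AXIN2, TCF7, RNF43 and ZNRF3 had every siADNP point above every siControl point, DKK1 had every siADNP point below, and NOTUM, NKD1 and NKD2 overlapped.

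The secreted inhibitor DKK1, which binds LRP5 and LRP6, went the other way. It was measured at 296, 288 and 299 CPM with siADNP and at 348, 360 and 346 CPM with siControl. The gap between the groups was wider than the range within either, and the means were 294 ± 5.58 and 351 ± 7.37 CPM (SD, n = 3 each). The log2 fold change was -0.26 ± 0.05 (SE; 95% interval -0.35 to -0.16), with an edgeR adjusted p of 6.09e-05. DKK1 rests on 7046 reads in the 3 siADNP libraries together and 9631 in the 3 with siControl, more than any other of the 10 genes. NOTUM, the secreted enzyme that inactivates WNT ligands, rests on 74 and 69 reads. It was at 2.31, 3.40 and 3.52 CPM with siADNP and at 2.58, 2.07 and 3.01 CPM with siControl. The low siADNP replicate 1 lay inside the siControl range, and the log2 fold change of 0.29 ± 0.27 did not pass (edgeR adjusted p = 0.447). It was 0.45 without siADNP replicate 1 and 0.14 without siControl replicate 2, and passed in neither. At this depth its 95% interval, -0.25 to 0.83, holds changes as large as that of AXIN2.

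The Dishevelled-binding proteins NKD1 and NKD2 did not pass the test. NKD1 was at 15.0, 19.3 and 15.3 CPM with siADNP and at 17.5, 17.2 and 19.3 CPM with siControl, so siADNP replicate 2 matched the highest control library. Its log2 fold change was -0.11 ± 0.12 (SE; 95% interval -0.34 to 0.12; edgeR adjusted p = 0.510). Without siADNP replicate 1, siADNP replicate 3 or siControl replicate 3 it was -0.04, -0.05 and -0.06, and without siADNP replicate 2 it was -0.24. NKD2 was at 13.0, 14.0 and 15.9 CPM with siADNP and at 15.5, 14.6 and 14.1 CPM with siControl, with the siADNP libraries spanning the control range. Its log2 fold change was -0.05 ± 0.12 (SE; 95% interval -0.29 to 0.20; edgeR adjusted p = 0.820), and leaving out 1 library at a time gave 0.02 without siADNP replicate 1, -0.12 without siADNP replicate 3, -0.00945 without siControl replicate 1 and -0.07 without siControl replicate 3. Both upper limits lie below the log2 fold change of AXIN2, although the difference between these genes and AXIN2 was not tested.

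APCDD1, a membrane inhibitor of WNT receptors, had 0 reads in all 6 libraries, which allows a level of up to 0.295 CPM in the deepest library and 0.407 CPM in the shallowest (3 reads each, counting error only). LGR5, the R-spondin receptor and intestinal stem cell marker, had 1 read in siADNP replicate 1 and 0 in the other libraries. Neither gives a fold change. The related receptor LGR4, looked at after its values were seen, was at 26.0 ± 0.497 CPM with siADNP and 21.8 ± 2.63 CPM with siControl (SD, n = 3 each), and its log2 fold change of 0.25 just missed the threshold (edgeR adjusted p = 0.0545). Among the alternatives it passed in were a correction for GC content (0.0193) and leaving out siControl replicate 2 (0.0254, log2 fold change 0.33), and without siControl replicate 1 it was 0.16 (0.303); DESeq2's Wald test gave an adjusted p of 0.200.

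**Figure D2:**
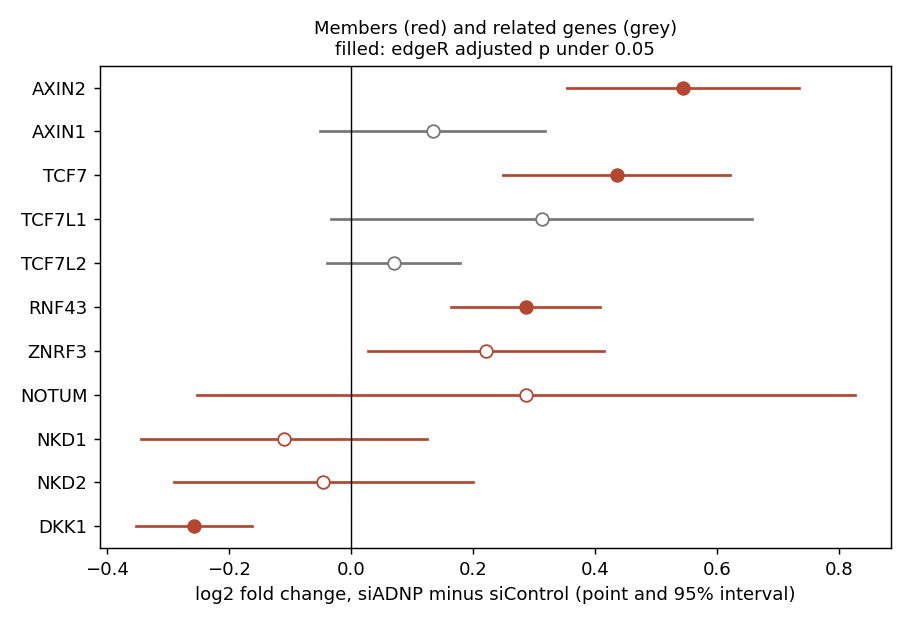
Log2 fold change, siADNP minus siControl, with its 95% interval, for the 8 tested members (red) and their relatives AXIN1, TCF7L1 and TCF7L2 (grey). Filled points passed an edgeR adjusted p under 0.05: AXIN2 at 0.54, TCF7 at 0.44, RNF43 at 0.29 and DKK1 at -0.26.

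Per kilobase of exon (RPKM, with exon lengths from GENCODE 29), the levels with siControl ran in the order DKK1, RNF43, NKD2, AXIN2, ZNRF3, TCF7, NKD1 and NOTUM. DKK1 was at 159 ± 3.34 RPKM and RNF43, the next, at 9.90 ± 0.418 RPKM (SD, n = 3 each). NKD2 was at 5.10, AXIN2 at 4.09, ZNRF3 at 3.19 and TCF7 at 2.19 RPKM with siControl. NKD1 at 1.03 and NOTUM at 0.846 RPKM were the only neighbours in this order whose libraries overlapped. With siADNP, AXIN2 at 5.93 ± 0.105 RPKM stood above NKD2 at 4.95 ± 0.506 RPKM (SD, n = 3 each), the reverse of their control order, and NOTUM and NKD1 again overlapped. The order depends on the exon lengths used, which for NKD1 is 17425 bases in that annotation.

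The ratio of a gene to its relative within a library does not depend on scaling between libraries. AXIN2 to AXIN1 was 1.18, 1.11 and 1.19 with siADNP and 0.881, 0.795 and 0.947 with siControl, so every siADNP ratio lay above every siControl ratio. The mean log2 ratio was higher by 0.41 with siADNP (exact permutation test, two-sided p = 0.1, the smallest that 3 against 3 libraries allow, and 0.2 adjusted over 4 ratios). TCF7 to TCF7L2 was 0.197, 0.178 and 0.206 with siADNP and 0.132, 0.159 and 0.158 with siControl, without overlap. That log2 difference was 0.37 (exact permutation p = 0.1, adjusted 0.2). With a correction for GC content the log2 fold changes of TCF7 and TCF7L2 were 0.38 and 0.09, and no ratio was computed from corrected values. RNF43 to ZNRF3 was 3.64, 3.56 and 3.31 with siADNP and 3.57, 3.45 and 3.04 with siControl. These overlapped, with a log2 difference of 0.06 (exact permutation p = 0.6, adjusted 0.7) that was -0.00423 without siControl replicate 3. NKD2 to NKD1 differed by 0.08 on the log2 scale (exact permutation p = 0.7, adjusted 0.7) and by -0.04 without siADNP replicate 3.

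**Figure D3:**
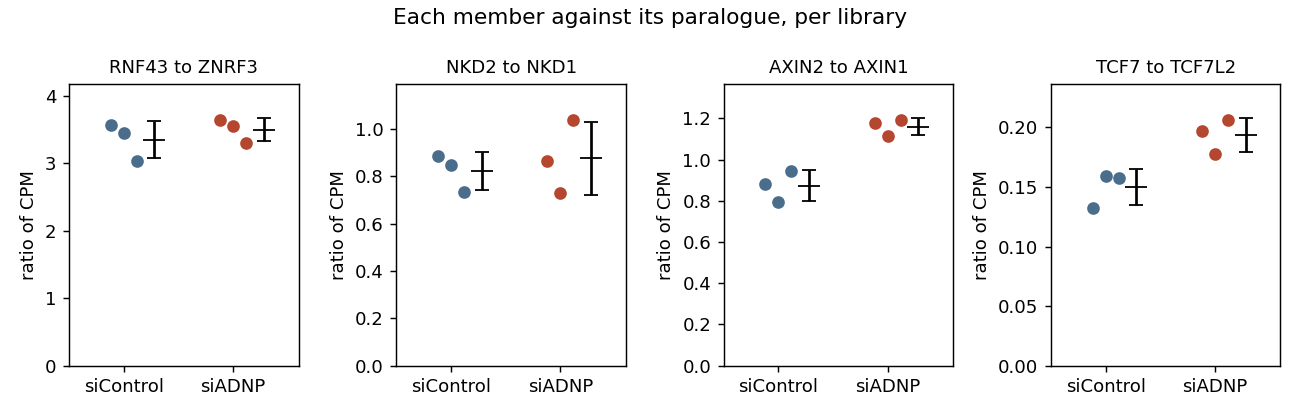
Ratio of CPM of each gene to its relative, per library (linear axes from 0), with blue siControl and red siADNP points and the mean and SD of 3 libraries in black. AXIN2 to AXIN1 and TCF7 to TCF7L2 did not overlap between the groups, and RNF43 to ZNRF3 and NKD2 to NKD1 did.

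Genes of the same pathway gave the setting. Of 43 listed beta-catenin targets that are not among the 10, 29 were tested: 9 rose, 6 fell, 14 missed the threshold, and their log2 fold changes had a median of 0.08. The shares called higher and lower were 31.0% and 20.7%, beside 14.6% and 13.7% of all tested genes. This list, and that of inhibitors, receptors and partners below, were chosen with earlier results of these data known, so their shares are a description only. The Notch ligand JAG1, the guidance receptor EPHB2, the adhesion molecule L1CAM and the stem cell factor SOX9 rose with log2 fold changes of 0.66, 0.59, 0.97 and 0.29. Cyclin D1 (CCND1), the phosphatase CDC25A and the AP-1 factors FOSL1 and JUN fell with -0.43, -0.35, -0.22 and -0.43.

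Of 64 listed symbols of inhibitors, receptors and partners of the 10 genes, 60 were matched in the table, and the 4 others were AMER1 and TRABD2A, matched under the older names FAM123B and C2orf89, and DRAXIN and TRABD2B, not analysed here. Of the 60, 36 were tested: 8 rose, 4 fell, 24 missed the threshold, and their log2 fold changes had a median of 0.13. The shares called higher and lower were 22.2% and 11.1%, beside 14.6% and 13.7% of all tested genes. The share called lower rests on 4 genes and was near that over all genes, and over the alternatives 2 to 5 were called lower. LRP6, which DKK1 binds, rose by 0.34 on the log2 scale, and WLS, the carrier of WNT ligands to the cell surface, by 0.36. DVL2, a Dishevelled protein, rose with 0.28, while DVL1 and DVL3 had -0.12 and -0.15 and were not called. APC2, a weakly expressed relative of APC, was at 3.72, 3.62 and 1.63 CPM with siADNP and at 0.673, 0.885 and 0.964 CPM with siControl, a log2 fold change of 1.84 ± 0.36 (edgeR adjusted p = 0.000147). The Frizzled receptors FZD6 and FZD3, on which RNF43 and ZNRF3 act as a family, fell with -0.26 and -0.28. The other tested Frizzled genes were not called: FZD1, FZD7, FZD4 and FZD2 had 0.35, 0.28, 0.21 and 0.07, and FZD5 had -0.07. The destruction complex scaffold APC and the tankyrase TNKS2, which marks AXIN proteins for removal, fell with -0.21 and -0.21. The falls of APC, FZD3 and TNKS2 did not pass with a correction for GC content (edgeR adjusted p = 0.0517, 0.0539 and 0.0585), nor did FZD3 without siADNP replicate 3 (0.0763) or TNKS2 without siADNP replicate 1 (0.0818) or replicate 3 (0.0570).

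Chosen after their values were seen, the other partners of DKK1 were LRP5 and the Kremen receptors. The log2 fold change was 0.22 for LRP5, 0.25 for KREMEN1 and 0.58 for KREMEN2, all called as rises, the last from 4.34 ± 0.266 to 6.52 ± 0.819 CPM (SD, n = 3 each). With a correction for GC content none of these passed (edgeR adjusted p = 0.172, 0.112 and 0.0907). KREMEN1 also did not pass without siADNP replicate 2 (0.118), siADNP replicate 3 (0.0593) or siControl replicate 3 (0.216), nor KREMEN2 without siADNP replicate 1 (0.101) or siControl replicate 1 (0.0699). Neither Kremen gene passed in DESeq2's Wald test (adjusted p = 0.142 and 0.115).

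**Figure D4:**
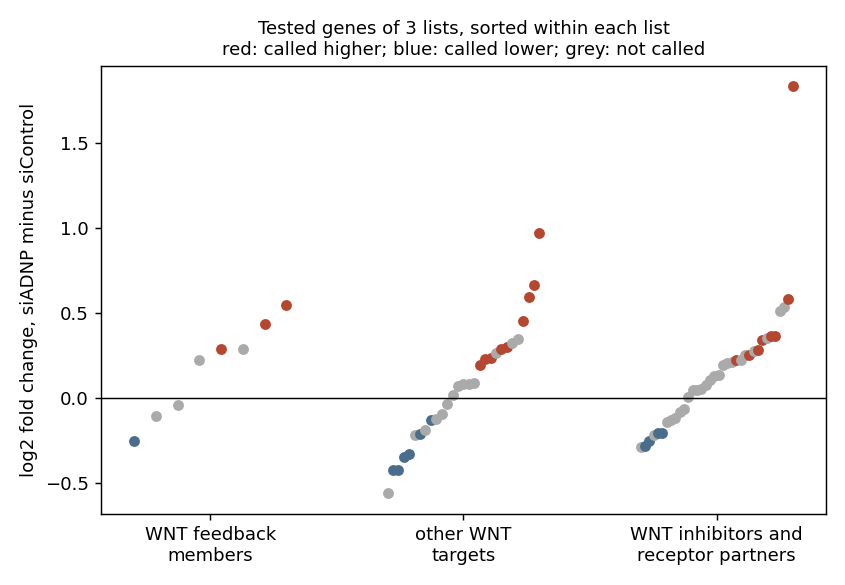
Log2 fold change, siADNP minus siControl, of every tested gene of the feedback members (8 genes), other WNT targets (29) and WNT inhibitors and receptor partners (36), sorted within each list. Red points were called higher, blue lower and grey not called (edgeR adjusted p under 0.05); all 3 lists hold calls in both directions.

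Of the 10657 other genes averaging 5 CPM or more, those nearest to AXIN2 in log2 level relative to the siControl mean over the 6 libraries were KCNG1, SRGAP1 and IL27RA, with mean absolute log2 differences of 0.0342, 0.0343 and 0.0385. They had log2 fold changes of 0.59, 0.50 and 0.59. All 3 had their lowest control value in siControl replicate 2 and their highest in siControl replicate 3, as AXIN2 did, a likeness the measure itself selects for.

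GC content moved with the calls over the whole table: genes called higher had a median of 54.0% in their longest transcript, those called lower 43.0% and those not called 48.6%. Among the called members, TCF7 was at 54.9%, AXIN2 at 53.1%, RNF43 at 50.7% and DKK1 at 43.5%, while NKD2 and NOTUM, which did not pass, were at 67.5% and 66.5%. With a correction for GC content NKD2 had a log2 fold change of -0.19 and NOTUM of 0.15, and neither passed. With a correction for GC content the log2 fold changes were 0.51 for AXIN2, 0.38 for TCF7, 0.27 for RNF43 and -0.21 for DKK1, and all 4 still passed (edgeR adjusted p = 8.08e-05, 0.00173, 0.000705 and 0.000722).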

How the data were processed

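RNA was measured in 3 siADNP and 3 siControl samples of HCT116. The authors deposited a table of raw read counts by gene symbol, which all main results use, and a second table of variance-stabilized values on a log2-like scale, used in an alternative only. Per the submitters' processing notes STAR, HTSeq and DESeq2 were used on hg19, without versions. For the annotation and the strand setting no source used here gives a value, so how reads on overlapping genes were assigned is not known. Lines that name no gene took 71.7% to 73.6% of each library and were left out. Reads in no feature were the largest part, at 54.4% to 55.7% of each siADNP library and 53.5% to 54.3% of each siControl library, without overlap. Reads that were not unique took 17.4% to 17.9% of each library, and ambiguous reads 0.455% to 0.500%.

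The test was the quasi-likelihood F-test of edgeR 4.0.16 under R 4.3.3, two-sided, for siADNP minus siControl, with TMM, filterByExpr (minimum count 10) and Benjamini-Hochberg adjustment over 12489 genes, after a check on simulated data. Standard errors are the log2 fold change over the square root of F. CPM and RPKM were computed here from the deposited counts. The GC correction is a lowess curve per library, entered as an offset. GC and exon lengths came from GENCODE 29 (GRCh38) and covered 96.7% of tested genes. The deposited counts rest on hg19, another build. The only coordinates given are those of the promoter windows, which are on GRCh38.p14. Genes named by rule are ADNP, the 10 members, their relatives and the 3 genes nearest to AXIN2. Up to 4 called genes per direction and list, with the smallest p, are named too. Values are also given for cell type markers and for SUPT4H1 and SKP1, whose exons overlap members. DVL1, DVL3 and the other tested Frizzled genes are given as relatives of called genes. LGR4, LRP5, KREMEN1 and KREMEN2 were named after their values were seen. Members and lists were chosen with earlier results of these data known. No 2 libraries agreed within sampling noise (chi-square per degree of freedom at least 1.80). Alternatives used DESeq2 1.42.0 and limma 3.58.1, and figures matplotlib 3.10.9.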

Additional observations from a re-analysis of the deposited data

How the results depend on the processing

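AXIN2, TCF7 and RNF43 were called higher and DKK1 lower in all 16 alternatives, so the member counts stayed at 3 and 1. Their log2 fold changes ranged from 0.29 to 0.61, 0.23 to 0.47, 0.21 to 0.32 and -0.27 to -0.21. The lowest values of AXIN2, TCF7 and RNF43 came from the deposited log2 values, a scale that shrinks differences. ZNRF3, NOTUM, NKD1 and NKD2 passed in none, and NKD2 changed sign without siADNP replicate 1 (leaving out 1 library gave -0.116 to 0.0176). DESeq2's Wald test called 1106 genes higher and 1079 lower, against 1824 and 1714. Of the inhibitors and receptor partners, 5 were called higher in DESeq2's Wald test and 5 with the GC offset and replicate block, against 8. Under that offset and block the rises of DVL2, LRP5, KREMEN1 and KREMEN2 did not pass (edgeR adjusted p = 0.0665, 0.201, 0.109 and 0.1115), while LGR4 passed (0.0266). The falls of APC, FZD3 and TNKS2 did not pass there either (edgeR adjusted p = 0.0673, 0.0745 and 0.0649). For the same list, leaving out 1 library gave 6 to 8 higher and 2 to 5 lower (2 without siADNP replicate 3). Leaving out 1 library gave log2 ratio differences of -0.00423 to 0.112 for RNF43 to ZNRF3 and -0.0436 to 0.209 for NKD2 to NKD1. Replicate numbers did not pair the samples (correlations of deviations 0.0238, -0.0352 and -0.0290, and not every sample correlated best with its own number). The replicate block gave 1694 higher and 1542 lower calls, and the 4 called members passed under it. Read number limits NOTUM, APCDD1 and LGR5.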
